A study of Mus musculus with 24 samples.

Results

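The libraries described here come from iNKT cells (invariant natural killer T cells) sorted from the mesenteric lymph nodes of male mice 24 h after a gavage of aGC. In 3 libraries the mice were the offspring of dams that had been given a fecal transplant (FT) from CD1d-knockout donors, here KO FT, and in the other 3 the donors were wild-type, here WT FT. The 6 libraries were taken by their labels for donor, treatment and sex out of 24 in the study, with the low level of Cd8a on both sides already known. The study as a whole holds 8 groups of 3 libraries, 1 for each combination of donor, treatment and sex. Treatment was 2 µg of aGC, alpha-galactosylceramide, in 200 µL of PBS, or the same volume of vehicle, here PBS. All mice sampled were C57BL/6J, the knockout belongs to the transplant donors alone, and the labels name no allele or age for the mice sampled. As the transplant reached the mice through their dams, the donor cannot be told apart from dam, litter or cage. The sources used here give neither the number of mice behind a library nor the sort gate. Whether the 3 libraries of a group are separate animals is not stated, so p-values measure how far these libraries scatter, part of which may be technical.

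iNKT cells carry a T cell receptor whose alpha chain joins Trav11 to Traj18 and which recognises glycolipids held by CD1d, and aGC is the classic ligand of that receptor. Within hours of such a signal the cells release cytokines, among them interferon gamma and interleukin 4, and then enter growth and division. Their main subsets are known by the regulators T-bet (iNKT1) and PLZF at a high level with GATA3 (iNKT2), and a further subset, iNKT17, makes interleukin 17. Germ-free and antibiotic-treated mice are known to differ from conventional mice in the number and responses of these cells.

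Total counts of the 6 libraries ran from 13157498 to 21349436, and each had a count in 21543 to 24959 genes. At this depth 3 counts correspond to 0.141 to 0.228 CPM, the lowest level read here, a limit that covers counting error only. CPM is the count scaled to a common library size, here with TMM factors. The label of iNKT cells was checked on the receptor first. Trav11 stood at 445, 425 and 505 CPM in the KO FT libraries and 404, 429.6 and 419 CPM in the WT FT libraries, and Traj18 at 62.4, 65.7 and 70.01 and 55.4, 60.1 and 55.1 CPM. Both segments were well represented on either side. The small rise of Trav11 (log2 change 0.13 ± 0.05, adjusted p = 0.0397) did not pass without KO FT library 1 or 3 or WT FT library 1 or 3, with log2 changes of 0.05 to 0.14. Tbx21, which encodes T-bet, was at 420.3, 430.2 and 417 CPM in KO FT and 414, 418 and 424 CPM in WT FT (log2 change 0.01 ± 0.05, adjusted p = 0.852), and for Gata3 the log2 change was 0.07 ± 0.11 (adjusted p = 0.608). Here and below a log2 change is KO FT minus WT FT, ± is its SE, values in brackets with no name are log2 changes, and adjusted p-values come from edgeR's quasi-likelihood test with Benjamini-Hochberg adjustment over all genes tested. Zbtb16, which encodes PLZF, was higher in KO FT, at 72.3, 60.8 and 75.97 against 40.3, 42.05 and 38.05 CPM (log2 change 0.80 ± 0.09, adjusted p = 1.08e-07). The Y-linked gene Ddx3y was present in all 6 libraries, at 67.1, 70.7 and 51.98 CPM in KO FT and 41.2, 46.3 and 44.2 CPM in WT FT, and Xist stayed at or below 0.40 CPM in each. The label of sex was checked on levels in these 6 libraries only. Of 5 sex-linked genes, Xist, Ddx3y, Eif2s3y, Kdm5d and Uty, 1 was higher and 1 lower in KO FT males given aGC. In KO FT females given aGC 4 of the 5 were higher, beside 19.0% of all genes, with a median log2 change of 0.99.

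CD8 transcripts, which mark conventional T cells, were low on both sides of this comparison. Cd8a was at 8.099, 7.51 and 7.17 CPM in KO FT and 5.54, 6.197 and 6.91 CPM in WT FT, while its means were 189 ± 9.31 and 245 ± 6.05 CPM (SD, n = 3) in KO FT and WT FT females given aGC. It was also high in the males given PBS, at 136 ± 4.603 CPM in KO FT and 287 ± 5.42 CPM in WT FT (SD, n = 3). Cd8b1 was lower in KO FT, at 6.36, 6.78 and 6.89 against 11.8, 12.3 and 12.9 CPM (log2 change -0.88 ± 0.07, adjusted p = 5.46e-10). The small rise of Cd8a (log2 change 0.28 ± 0.10, adjusted p = 0.0357) did not pass once a trend with gene length was removed (adjusted p = 0.0951), nor without KO FT library 1 or 2 or WT FT library 1 or 2 (log2 changes 0.20 to 0.28). Cd4, which many mouse iNKT cells carry, was higher in KO FT, at 181, 159 and 169 against 89.9, 115 and 95.9 CPM (log2 change 0.76 ± 0.09, adjusted p = 5.43e-07).

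Of 15953 genes tested, 3855 (24.2%) were higher and 3566 (22.4%) lower in KO FT than in WT FT at an adjusted p under 0.05. A change larger than 1.5-fold was supported for 1136 genes (7.12%) above and 347 (2.18%) below. These counts rest on a small spread between libraries of a group, a coefficient of variation of 0.108. The 8 groups were also each summed to 1 profile. A model of these with treatment, donor, their interaction and sex left 0.424, on 3 residual degrees of freedom. That value takes in any change of these effects with sex, so it is not a spread between mice alone. Against that larger spread 32 genes (0.201%) were higher and 4 (0.0251%) lower. The calls below are from the libraries. Counts of list members in the males given aGC are to be read beside the 24.2% higher and 22.4% lower of all genes. Some of the genes that also passed on the summed profiles are named here. Of the 32, 14 had no count in any WT FT library and means of 0.961 to 5.52 CPM in KO FT. Among the rest were Ctse, Rsad2, Ifit3b, Cmpk2, Txnip, the kinase gene Snrk, Irak3, which restrains Toll-like receptor signalling, the remodelling factor gene Chd2 and the phosphodiesterase gene Pde2a. The 4 genes below were Penk, Ccl1, Znrf2 and the predicted gene Gm4316.

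Ctse and Penk had the largest rise and the largest fall among named genes. Ctse (chromosome 1, 131638306 to 131675505, plus strand, GRCm38), which encodes the aspartic protease cathepsin E, was at 275, 235 and 269 CPM in KO FT and 9.97, 13.3 and 10.4 CPM in WT FT, 23.02-fold higher (log2 change 4.52 ± 0.09, adjusted p = 1.13e-20). In the other 6 groups its mean lay between 20.2 ± 0.632 and 45.6 ± 0.822 CPM (SD, n = 3), so the WT FT males given aGC were the lowest of the 8 groups and the KO FT males given aGC the highest. Penk (chromosome 4, 4133531 to 4138819, minus strand), which encodes the opioid precursor proenkephalin, was at 41.2, 46.2 and 46.6 CPM in WT FT and 0.0669, 0 and 0.0931 CPM in KO FT. Its 3 counts over all KO FT libraries against 1886 in WT FT give a ratio of 746, with an exact 95% interval of 255 to 3620 for counting error. The gene was also seen in WT FT males given PBS, at 8.58 ± 1.34 CPM (SD, n = 3), and there too its mean in KO FT males, 0.0296 CPM, was below the limit of 3 counts. In females given aGC the order was the opposite, with 9.59 ± 1.51 CPM in KO FT and 0.934 ± 0.224 CPM in WT FT (SD, n = 3).

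Of the other large rises, some were interferon-stimulated genes, described below, and the rest had varied roles and low levels. Susd2, a membrane protein with a sushi domain, was at 11.7, 12.4 and 13.7 CPM against 1.699, 2.33 and 1.32 CPM (log2 change 2.81 ± 0.19, adjusted p = 1.29e-10). Impact, which restrains the amino acid sensor Gcn2, was at 13.1, 12.3 and 10.99 against 1.48, 2.47 and 3.45 CPM. The libraries did not overlap for either gene. Here and below, genes were named mostly for a large change or a small adjusted p in this comparison. That choice nearly ensures such separation, which is a description and no separate evidence. Itga3, Akap11, Pcmtd1, Slc36a4, Garnl3 and Cep350 rose by log2 values of 2.10 to 2.44, from 1.32 to 7.76 CPM in the WT FT libraries to 8.10 to 28.9 CPM in the KO FT libraries. Cep350 encodes a centrosomal protein and Akap11 an anchor of protein kinase A.

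Large falls included those of a chemokine, a ubiquitin ligase and a hexokinase gene. Ccl1 (chromosome 11, 82176657 to 82305690, minus strand), a chemokine that attracts cells bearing Ccr8, was at 84.5, 91.2 and 108 CPM in KO FT and 364, 356 and 404 CPM in WT FT, 3.96-fold lower (log2 change -1.98 ± 0.10, adjusted p = 1.72e-12, summed profiles 0.00221). The ubiquitin ligase gene Znrf2 was at 26.2, 23.8 and 21.6 against 86.9, 75.3 and 80.3 CPM (log2 change -1.76 ± 0.09, adjusted p = 1.38e-12), and it was lower in KO FT females given aGC by a like amount (log2 change -1.69 ± 0.10). Egln1 encodes the prolyl hydroxylase that marks hypoxia-inducible factor for decay. It was at 23.96, 27.5 and 25.9 CPM in KO FT and 81.1, 75.5 and 73.9 CPM in WT FT (log2 change -1.58 ± 0.08, adjusted p = 1.05e-12). Hk2, the inducible hexokinase, was at 9.04, 8.25 and 10.3 against 22.2, 26.7 and 22.5 CPM (log2 change -1.37 ± 0.29, adjusted p = 0.000482). Pmepa1, a target and inhibitor of TGF-beta signalling, was at 11.7, 13.3 and 13.5 against 26.5, 36.7 and 38.4 CPM (log2 change -1.40 ± 0.13, adjusted p = 6.76e-09). Falls of 1.35 to 2.26 on the log2 scale were also called for Zfp874b, Zfp865, Nfix, Cables1, Cenpk, Nfya, Srxn1 and Tada2b, all of which stood below 10 CPM in every KO FT library. Zfp865 was the least even of them, at 1.81, 7.14 and 7.499 CPM in KO FT and 20.6, 11.8 and 28.1 CPM in WT FT (adjusted p = 0.0225), and it did not pass without KO FT library 1 (log2 change -1.47) or WT FT library 3 (-1.56).

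**Figure D1:**
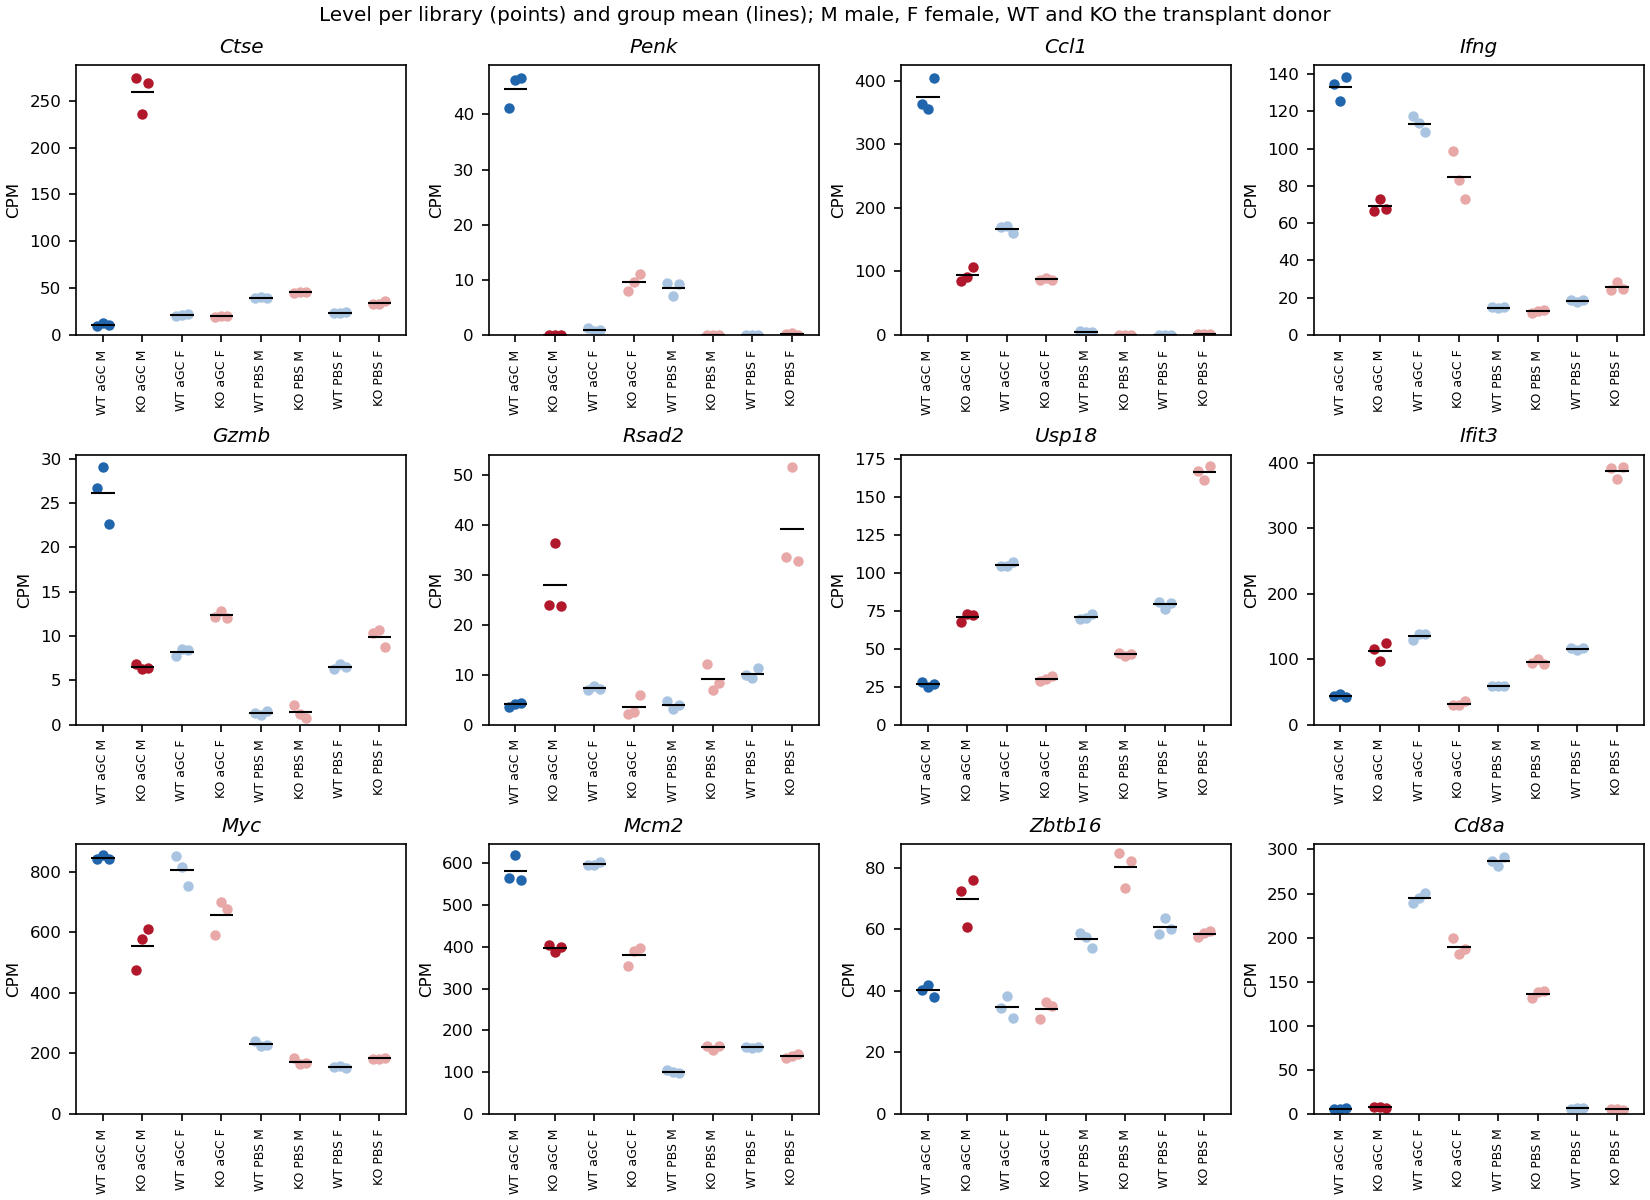
Level in CPM on a linear axis from 0 of 12 genes in each of the 24 libraries, by group, with points for libraries and lines for means; M and F are male and female, WT and KO the transplant donor. Ctse was highest and Penk near 0 in the KO FT males given aGC, while Ccl1 and Ifng were high in the aGC groups and lower in KO FT than WT FT males.

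Genes that type I interferon induces were higher in KO FT in most cases. Interferon alpha and beta act through Ifnar1 and Ifnar2 on a complex that includes Stat2 and Irf9, which binds the interferon-stimulated response element (ISRE) in the promoters of antiviral genes. Of 57 listed genes tested, 45 were higher and 2 lower in KO FT, beside 24.2% and 22.4% of all genes. The list's median log2 change was 0.58, against 0.01 for all genes tested. The list's summed level was 5287 to 5437 CPM in the KO FT libraries and 3942 to 3957 CPM in the WT FT libraries, with no overlap. The 2 lower members were Ifi27l2a (log2 change -0.69) and Bst2 (-0.30), the latter the gene of the virus-tethering protein tetherin. The ISRE was searched for as GAAANNGAAA on both strands, overlaps counted once per promoter, in the RefSeq promoters of GRCm38.p6, from 250 bases before to 50 after each start. It was found in 1131 of 32851 promoters (3.44%) and in 26 of 56 promoters of the list (46.4%), which belong to 23 of the 44 genes with a promoter in the table. The stretches below hold such matches in the promoters of 7 genes that rose, with the match in capitals and up to 25 bases on either side, 5′ to 3′ on the strand of the gene.
Rsad2 (chr12:26456538-26456597, minus strand): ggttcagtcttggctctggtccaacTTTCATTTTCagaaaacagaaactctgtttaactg
Ifit1 (chr19:34640760-34640838, plus strand): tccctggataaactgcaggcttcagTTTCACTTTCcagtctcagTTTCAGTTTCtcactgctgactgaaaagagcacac
Ifit3 (chr19:34583348-34583441, plus strand): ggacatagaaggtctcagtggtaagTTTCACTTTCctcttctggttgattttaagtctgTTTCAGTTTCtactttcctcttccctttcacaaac
Ifit3b (chr19:34607744-34607837, plus strand): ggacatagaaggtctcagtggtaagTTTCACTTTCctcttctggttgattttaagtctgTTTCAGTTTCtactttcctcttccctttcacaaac
Ifi208 (chr1:173673582-173673641, plus strand): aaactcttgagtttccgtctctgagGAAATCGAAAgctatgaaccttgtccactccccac
Ddx58 (chr4:40239796-40239848, minus strand): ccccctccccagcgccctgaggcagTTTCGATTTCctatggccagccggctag
Slfn5 (chr11:82951922-82951981, plus strand): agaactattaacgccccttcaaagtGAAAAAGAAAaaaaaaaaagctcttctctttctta
The stretches of Ifit3 and Ifit3b are identical. These genes are near copies of each other, so reads may be shared between them and their separate values are uncertain. A match describes the letters only and is no measurement of binding.

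Rsad2, which encodes the antiviral enzyme viperin, was at 23.8, 36.2 and 23.7 CPM in KO FT and 3.55, 4.13 and 4.41 CPM in WT FT (log2 change 2.79 ± 0.28, adjusted p = 3.51e-08). Its neighbour Cmpk2, a mitochondrial nucleotide kinase, was at 42.4, 31.7 and 47.9 against 10.6, 11.6 and 8.81 CPM (log2 change 1.98 ± 0.14, adjusted p = 1.99e-10). For both, and for Ifit3b, the change also passed on the summed profiles (adjusted p = 0.0445, 0.0445 and 0.0332). The IFIT proteins bind viral RNA. Ifit1 was at 156, 146 and 132 against 64.4, 71.7 and 67.1 CPM, Ifit2 at 28.6, 27.6 and 24.6 against 5.25, 7.13 and 7.86 CPM and Ifit3 at 115, 97.1 and 125 against 43.7, 46.2 and 41.6 CPM. Log2 changes were 1.09 ± 0.06 for Ifit1, 1.99 ± 0.12 for Ifit2, 1.36 ± 0.08 for Ifit3 and 2.13 ± 0.18 for Ifit3b. In each case every KO FT library stood above every WT FT library. Usp18, which removes ISG15 from proteins and damps the interferon receptor, was at 67.3, 72.6 and 72.5 against 28.2, 25.1 and 26.9 CPM (log2 change 1.41 ± 0.06, adjusted p = 4.89e-14). The RNA sensor gene Ddx58, which encodes RIG-I, was at 97.9, 97.7 and 95.95 against 45.7, 38.5 and 35.4 CPM (log2 change 1.29 ± 0.08, adjusted p = 5.2e-11). Ifi208, of the DNA-sensing p200 family, had a log2 change of 1.16 ± 0.07 and Slfn5 one of 2.08 ± 0.18. Lgals3bp and Ifi35, 2 members at a high level, did not pass (log2 changes 0.08 ± 0.05 and -0.05 ± 0.06). Upstream of these genes, log2 changes of 0.83 for Stat2, 0.48 for Ifnar1 and 0.52 for Ifnar2 passed. Stat2 is itself a member of the list, and it did not pass in females given aGC (log2 change -0.27). Ifnar1 and Ifnar2 were also higher in KO FT females given aGC (log2 changes 0.37 and 0.37, adjusted p = 0.000323 and 0.000694). The part of the receptor genes in the rise of the list in males was not tested.

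In females given aGC most of the listed interferon-stimulated genes were lower in KO FT. There 5 of the 57 were higher and 38 lower in KO FT, beside 19.0% and 24.4% of all genes, with a median log2 change of -0.46. The difference between the sexes passed for 49 of the 57, in each case with the higher value in males, beside 17.4% of all genes. Of the 57, 29 were higher in KO FT males and lower in KO FT females. Ifit3 was lower in KO FT females, with a log2 change of -2.07 ± 0.08 and a difference between the sexes of 3.43 ± 0.11 (adjusted p = 3.6e-16). Usp18 had a log2 change of -1.79 ± 0.06 in females and a difference of 3.20 ± 0.08 (adjusted p = 4.93e-18). Levels in the 8 groups differed by gene. The mean of Usp18 was 70.8 ± 3.01 CPM in KO FT and 26.7 ± 1.59 CPM in WT FT males given aGC, and 30.4 ± 1.57 and 106 ± 1.67 CPM in the females (SD, n = 3). In males given PBS it was 46.3 ± 0.869 CPM in KO FT and 70.8 ± 1.62 CPM in WT FT (SD, n = 3). The highest mean was that of KO FT females given PBS, 167 ± 4.61 CPM (SD, n = 3). For this gene WT FT males given aGC were the lowest of the 8 groups. For Ifit3 and Rsad2 the lowest mean was that of KO FT females given aGC, 31.9 ± 3.76 and 3.47 ± 2.102 CPM, against 43.8 ± 2.27 and 4.03 ± 0.4395 CPM in WT FT males given aGC (SD, n = 3). Cd8a, low in the males given aGC, was high in the females they are compared with, and its part in the difference was not tested.

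**Figure D2:**
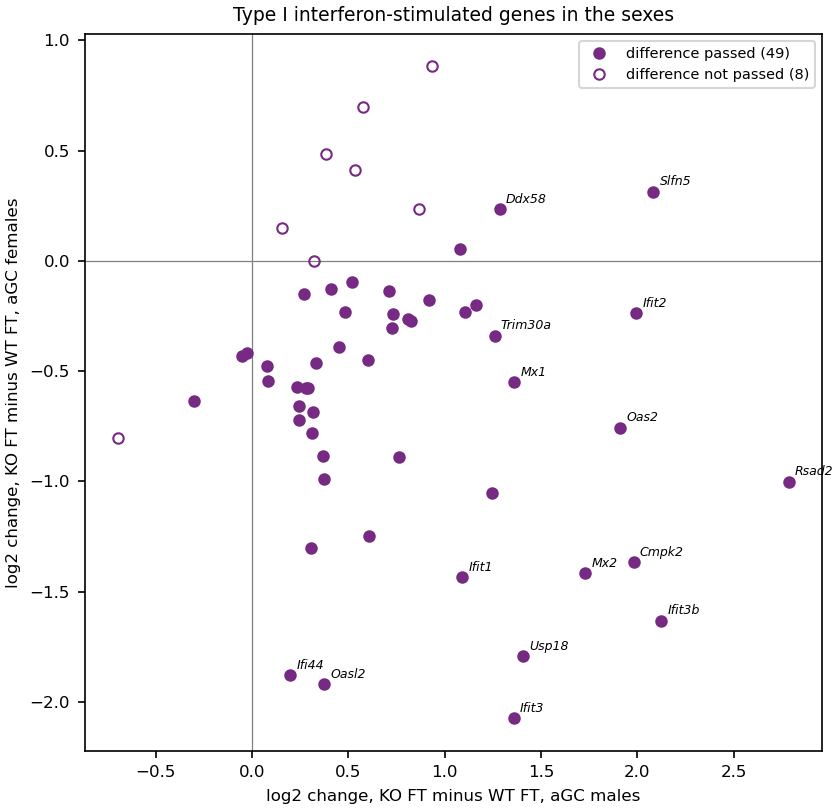
Log2 change KO FT minus WT FT after aGC of 57 type I interferon-stimulated genes in males (x axis) and females (y axis); filled points passed the test of the difference between the sexes (49) and open points did not (8). Most points lie to the right of 0 and below 0, with Rsad2 farthest right and Ifit3 lowest.

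Of 33 GTPases and antigen presentation genes that interferon gamma induces, 7 were higher and 7 lower in males, with a median log2 change of 0.08. These shares are near those of all genes, 24.2% and 22.4%. The higher count was 15 when only genes at 10 CPM or more were fitted, and the lower count 3 on the 6 libraries alone. Irgm2, an immunity-related GTPase, was at 57.3, 53.02 and 48.2 CPM in KO FT and 18.1, 19.1 and 16.97 CPM in WT FT (log2 change 1.55 ± 0.07, adjusted p = 7.14e-13). The guanylate-binding proteins divided. Gbp7, Gbp8 and Gbp9 were higher (log2 changes 0.39 ± 0.04, 0.51 ± 0.06 and 0.41 ± 0.07) and Gbp2 was lower (-0.41 ± 0.06), with the reservation that these genes are close relatives. The class I genes H2-K1 and H2-D1 did not pass (log2 changes -0.02 ± 0.05 and 0.01 ± 0.04). In females 27 of the 33 were lower and 1 higher, beside 24.4% and 19.0% of all genes. The sexes differed for 24 of the 33, 23 with the higher value in males, beside 17.4% of all genes.

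Effector genes were mostly lower in KO FT where they changed. Of 27 cytokine and chemokine genes, 9 were lower and 3 higher, with a median log2 change of -0.15. Ifng, the signature cytokine of iNKT1 cells, was at 66.5, 72.9 and 67.8 CPM in KO FT and 135, 126 and 138 CPM in WT FT, 1.93-fold lower (log2 change -0.95 ± 0.08, adjusted p = 4.25e-09). Il4 was at 127, 136 and 139 against 182, 177 and 188 CPM (log2 change -0.44 ± 0.08, adjusted p = 0.000109). No library of either gene overlapped the other group. Ifng stood above its level after PBS in both groups, where its means were 12.8 ± 0.877 CPM in KO FT and 14.7 ± 0.288 CPM in WT FT males (SD, n = 3). The chemokines Ccl4 and Xcl1, which draw other immune cells, were at 62.5, 73.9 and 78.9 against 135, 126 and 143 CPM and 108, 124 and 144 against 199, 193 and 214 CPM (log2 changes -0.91 ± 0.11 and -0.69 ± 0.09). Tnfsf11, which encodes RANKL, and Tgfb1 were lower (-0.40 ± 0.06 and -0.44 ± 0.06). Tgfb1 had the opposite sign in females given aGC (log2 change 0.50 ± 0.06, adjusted p of the difference 2.88e-08). The 3 higher members were Csf1 (log2 change 0.95), Tnfsf8 (0.44) and Cd40lg (0.18), the last of which did not pass without KO FT library 1 (0.11) or WT FT library 3 (0.15). The count of higher members was 1 without KO FT library 2 or WT FT library 1 and 0 without WT FT library 3. Ltb and Fasl did not pass (log2 changes 0.13 ± 0.08 and -0.09 ± 0.11).

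Among 17 genes of cytotoxicity, 10 were lower and 2 higher, with a median log2 change of -0.34. Gzmb, which encodes granzyme B, was at 6.83, 6.26 and 6.33 CPM in KO FT and 26.8, 29.1 and 22.7 CPM in WT FT (log2 change -2.01 ± 0.18, adjusted p = 4.88e-09). In females given aGC it was higher in KO FT (log2 change 0.59 ± 0.18), and the sexes differed (adjusted p = 1.21e-07). Crtam, a receptor of activated cytotoxic cells, was at 47.3, 40.2 and 45.7 against 98.4, 99.4 and 94.5 CPM (log2 change -1.13 ± 0.10, adjusted p = 7.55e-09). The granzyme inhibitor gene Serpinb9 and the granule proteoglycan gene Srgn were lower (log2 changes -0.76 ± 0.07 and -0.55 ± 0.07). Perforin ran the other way, with Prf1 at 26.8, 29.7 and 27.8 CPM in KO FT and 17.4, 18.7 and 16.5 CPM in WT FT (log2 change 0.68 ± 0.08, adjusted p = 1.39e-07). Among 18 receptors of natural killer cells, 7 were higher and 3 lower, with Klrb1c, the NK1.1 antigen, higher by 0.28 ± 0.06 and Klrg1 lower (-1.05 ± 0.28), and with genes at 10 CPM or more alone the counts were 3 and 0. CD8 T cells also use several of these genes. Their marker list of 9 genes had 2 higher and 4 lower members and a summed level of 327.8 to 361 CPM in KO FT and 399 to 435 CPM in WT FT, and its part in these falls was not tested.

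Of 35 transcription factors that the T cell receptor induces, 7 were higher and 10 lower, with a median log2 change of -0.08. These shares too are near the 24.2% and 22.4% of all genes. Myc was at 475, 578 and 609.5 CPM in KO FT and 842, 856 and 842 CPM in WT FT (log2 change -0.61 ± 0.07, adjusted p = 3.25e-07). The NF-kappa-B regulator gene Nfkbid was at 597, 587 and 618 against 945, 953 and 946 CPM (log2 change -0.66 ± 0.04, adjusted p = 1.06e-10), and Irf8 was lower (-0.75 ± 0.08). Values for each of these 3 genes separated the groups fully, as their choice by small adjusted p nearly ensures. Jun, a subunit of AP-1, was higher, at 75.4, 90.3 and 92.8 against 41.97, 34.9 and 38.8 CPM (log2 change 1.16 ± 0.10, adjusted p = 5.64e-09), and so were Nfatc1 (0.49 ± 0.05) and Egr1 (0.44 ± 0.05). Jun is also raised by cell dissociation. Fos, listed with it here and among the dissociation genes, was lower (log2 change -0.52, adjusted p = 0.000211). In females given aGC Jun was lower in KO FT (log2 change -0.55, adjusted p = 7.99e-05). Junb and Jund did not pass (log2 changes -0.02 ± 0.10 and -0.33 ± 0.16).

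Of 20 activation and co-stimulatory receptors, 8 were lower and 5 higher, with a median log2 change of -0.11. Tnfrsf4, which encodes OX40, was at 59.3, 48.4 and 57.6 CPM in KO FT and 114, 122 and 103 CPM in WT FT (log2 change -1.03 ± 0.10, adjusted p = 2.58e-08). The early activation marker gene Cd69 was at 264, 261 and 239 against 362, 352 and 365 CPM (log2 change -0.50 ± 0.05, adjusted p = 3.16e-08). Cd83 and Tnfrsf18, which encodes GITR, were lower (-0.67 ± 0.06 and -0.45 ± 0.06). Cd44, the memory marker, and Tnfrsf1b were higher by 0.59 ± 0.07 and 0.36 ± 0.05, while Icos and Cd48 did not pass. Co-inhibitory receptors gave 3 higher and 4 lower of 16, near the 24.2% and 22.4% of all genes. The counts were 5 and 2 with genes at 10 CPM or more alone, and 1 was higher without KO FT library 1, without WT FT library 3 or with the length trend removed. Ctla4, at 4.68, 4.79 and 2.93 against 10.4, 10.1 and 7.12 CPM, was among the lower (log2 change -1.17 ± 0.21), and so was Pdcd1lg2, which encodes PD-L2 (-0.71 ± 0.10). Pdcd1, which encodes PD-1, was at 171, 143 and 163 CPM in KO FT and 160.5, 182 and 159 CPM in WT FT and did not pass (adjusted p = 0.431).

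Of 33 genes of the T cell receptor complex and its proximal signalling, 16 were higher and 2 lower (median log2 change 0.20), but 12 and 5 after the length trend was removed (median 0.08). Plcg1, the phospholipase that starts calcium flux, was at 157, 125 and 148 CPM in KO FT and 85.6, 76.7 and 65.6 CPM in WT FT (log2 change 0.91 ± 0.09, adjusted p = 2.51e-08). The Tec kinase gene Txk was higher by 0.66 ± 0.05. Lat, the membrane adaptor, was lower, at 669.9, 719.6 and 808 against 1043, 1092 and 1086 CPM (log2 change -0.55 ± 0.06), as was Zap70 (-0.35). Lck and Cd3g did not pass. Of 26 negative regulators, 11 were higher and 5 lower (median log2 change 0.24), but 9 and 7 after the length trend was removed (median 0.09). They included the ubiquitin ligase gene Cblb, at 53.5, 48.2 and 47.97 against 24.8, 27.9 and 24.9 CPM (log2 change 0.95 ± 0.11, adjusted p = 1.76e-07), and Socs3, at 34.1, 31.3 and 34.6 against 17.2, 19.9 and 15.8 CPM (0.92 ± 0.09). The phosphatase genes Dusp6 and Dusp5, which act on ERK, moved apart, by 0.69 ± 0.08 and -0.53 ± 0.05.

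Cytokine receptors and STAT genes gave 21 higher and 5 lower of 32, with a median log2 change of 0.32. With the length trend removed the counts were 17 and 5 (median 0.20), and the median exon length was 5191 bases. Tgfbr2, a subunit of the TGF-beta receptor, was at 160.2, 147 and 161 CPM in KO FT and 69.5, 66.3 and 66.1 CPM in WT FT (log2 change 1.21 ± 0.05, adjusted p = 1.94e-13). It was also higher in KO FT females given aGC (log2 change 0.98 ± 0.05). Il18rap, a subunit of the interleukin 18 receptor, was at 56.6, 44.3 and 51.2 against 18.3, 16.1 and 15.9 CPM (log2 change 1.60 ± 0.11, adjusted p = 2.06e-10). Both genes separated the groups with a wide gap. Il7r, Stat3, Il2rb and Il27ra were higher by log2 changes of 0.75 ± 0.09, 0.47 ± 0.05, 0.40 ± 0.04 and 0.36 ± 0.04. Il21r and Il10ra did not pass.

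Of the lists of iNKT subsets, that of iNKT17 changed mostly in 1 direction. Of its 22 genes, 14 were higher and 1, Maf, was lower, with a median log2 change of 0.42. Il17re, a receptor subunit for interleukin 17C, was at 8.03, 9.21 and 12.7 CPM in KO FT and 3.99, 3.27 and 3.97 CPM in WT FT (log2 change 1.43 ± 0.20, adjusted p = 3.07e-06). The chemokine receptor gene Ccr2 was at 98.5, 85.3 and 73.3 against 45.96, 42.2 and 44.7 CPM (log2 change 0.95 ± 0.10), and Aqp3 and Itgb3 were higher by 1.02 ± 0.14 and 0.70 ± 0.10. None of these 4 is a cytokine. In females given aGC the list gave 15 higher and 2 lower of the 22, beside 19.0% and 24.4% of all genes. A list of 6 gamma delta T cell genes gave 4 higher and 1 lower and a summed level of 763 to 877 CPM in KO FT and 509 to 529 CPM in WT FT. Tcrg-C1, Tcrg-C2 and Tcrg-C4 were higher by 0.56 ± 0.05, 0.68 ± 0.05 and 0.60 ± 0.07, with reads that may be shared among them, and Trdc, the delta constant region, was lower (log2 change -0.81). Their part in the iNKT17 result was not tested.

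iNKT1 genes gave 11 higher and 6 lower of 26. Cxcr3 was at 498, 460.2 and 505 CPM in KO FT and 325, 367 and 315 CPM in WT FT (log2 change 0.54 ± 0.05, adjusted p = 1.74e-08) and Ly6c2 was higher by 0.57 ± 0.06. The lower members included Gzmb, Xcl1 and Eomes (-0.34 ± 0.11), which did not pass without a filter on low counts (-0.31). iNKT2 genes gave 6 higher and 5 lower of 18, beside 24.2% and 22.4% of all genes. Il17rb, the receptor for interleukin 25, was at 130.5, 128 and 133 against 84.2, 90.3 and 87.8 CPM (log2 change 0.58 ± 0.05, adjusted p = 3.33e-09). It was also higher in KO FT females given aGC (0.61 ± 0.05) and KO FT males given PBS (0.95 ± 0.05). Follicular helper-like genes gave 2 higher and 5 lower of 14, among the latter Cxcr5 (-0.49 ± 0.14) and Sh2d1a (-0.44 ± 0.07), and Bcl6 did not pass (-0.38 ± 0.21, adjusted p = 0.147). Without KO FT library 2, WT FT library 1 or WT FT library 3 the higher count of that list was 1. Regulatory genes gave 4 higher and 8 lower of 20, with Ikzf4 higher by 1.13 ± 0.24 and Ikzf2 not passing, and 2 were higher without KO FT library 1, WT FT library 1 or WT FT library 3.

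Genes of homing and recirculation were more often higher in KO FT. Of 25 homing receptors and integrins, 17 were higher and 5 lower, with a median log2 change of 0.43. Ccr9, which guides cells to the small intestine, was at 271, 245 and 253 CPM in KO FT and 164, 172 and 162 CPM in WT FT (log2 change 0.63 ± 0.05, adjusted p = 1.13e-09). It was higher in KO FT by 0.70 ± 0.05 in females given aGC and by 0.76 ± 0.05 in males given PBS. Itga6, Ccr4 and Selplg, a ligand of selectins, were higher by 1.04 ± 0.12, 0.62 ± 0.08 and 0.47 ± 0.06. Of 20 genes of naive and recirculating lymphocytes, 13 were higher and 2 lower (median log2 change 0.37). With the length trend removed the counts were 11 and 4 (median 0.23), and the median exon length was 5147 bases. Txnip, which restrains glucose uptake, was at 110.0, 109.8 and 102 against 37.6, 34.8 and 35.3 CPM (log2 change 1.58 ± 0.05, adjusted p = 3.25e-16, summed profiles 0.038). Klf2 and its target S1pr1, the receptor for lymph node exit, were at 19.7, 21.8 and 22.2 against 12.6, 12.5 and 13.7 CPM and 40.03, 36.6 and 34.2 against 22.2, 24.3 and 26.7 CPM (log2 changes 0.72 ± 0.07 and 0.60 ± 0.07). Ccr7, the receptor for lymph node entry, was lower (-0.38 ± 0.05). In females given aGC the recirculation list gave 7 higher and 9 lower, beside 19.0% and 24.4% of all genes. The sexes differed for 16 of the 20, where 17.4% of all genes had the higher and 12.4% the lower value in males.

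Receptors for microbial and mucosal signals gave 11 higher and 4 lower of 24. Nod1, the cytosolic sensor of bacterial peptidoglycan, was at 45.2, 37.7 and 44.3 CPM in KO FT and 14.6, 15.9 and 12.6 CPM in WT FT (log2 change 1.57 ± 0.13, adjusted p = 2.85e-09), and it was higher in KO FT females given aGC as well (0.83 ± 0.12). Nr3c1, the glucocorticoid receptor, was at 95.6, 109 and 96.4 against 44.7, 43.1 and 44.2 CPM (log2 change 1.19 ± 0.08, adjusted p = 9e-11). The ATP receptor gene P2rx7 was higher by 0.56 ± 0.07, and Tiparp, a target of the aryl hydrocarbon receptor, by 1.499 ± 0.24. Rara and Nr1h2 did not pass. Of 17 clock genes 8 were higher and 2 lower, with Arntl at 82.5, 88.2 and 78.1 against 49.6, 61.8 and 47.8 CPM (log2 change 0.64 ± 0.08) and Nfil3 lower (-0.64 ± 0.16), and 5 were higher with the length trend removed. The sources used here give no hour of sampling.

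Genes of growth and division were lower in KO FT in large numbers. MYC drives ribosome biogenesis and the entry to S phase in activated T cells, and binds the E-box CACGTG. Of 39 genes of the MYC network and ribosome biogenesis, 27 were lower and 5 higher, with a median log2 change of -0.42. Npm1, the nucleolar chaperone nucleophosmin, was at 817, 835 and 774 CPM in KO FT and 1493, 1407 and 1434 CPM in WT FT (log2 change -0.84 ± 0.05, adjusted p = 4.57e-11). The polyamine synthesis gene Srm was at 469.6, 459 and 523 against 832, 875 and 831 CPM (log2 change -0.81 ± 0.06, adjusted p = 3.78e-10), and Ncl, Nop56 and Nop16 were lower (-0.50 ± 0.03, -0.57 ± 0.05 and -0.73 ± 0.05). No library overlapped in these 5 genes. Mlxip, of the parallel MLX branch, was higher, at 43.6, 43.3 and 46.4 against 18.4, 19.7 and 16.3 CPM (1.29 ± 0.11). The other higher members were Mycn, Polr1a and the MYC antagonist genes Mxd1 and Mxi1, and the higher count was 3 without KO FT library 3 or WT FT library 3. Tsr1 and Rrp12 did not pass. In females given aGC 18 were lower and 7 higher, beside 24.4% and 19.0% of all genes. The sexes differed for 18, 15 of them with the lower value in males, beside 12.4% of all genes.

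DNA replication genes showed the largest median fall of the pathway lists, -0.53 on the log2 scale, with 31 lower and 1, the cyclin gene Ccnd3 (0.39), higher of 38. Mcm2, a subunit of the replicative helicase, was at 405, 387 and 399 CPM in KO FT and 565, 619 and 559 CPM in WT FT (log2 change -0.55 ± 0.05, adjusted p = 3.6e-09). Pcna, the sliding clamp, was at 216, 208 and 226 against 336, 353 and 319.8 CPM (-0.63 ± 0.06), and Rfc4, of the clamp loader, was lower (-0.91 ± 0.08). Tyms, which makes thymidylate, was at 43.3, 39.5 and 48.4 against 79.5, 104 and 96.1 CPM (log2 change -1.09 ± 0.09, adjusted p = 3.89e-09). Cdk4, the kinase of the G1 phase, was at 469.7, 493 and 488 against 702, 748 and 697 CPM (log2 change -0.57 ± 0.04, adjusted p = 3.97e-10). Each of these 5 separated the groups, which their choice by small adjusted p nearly ensures, while Mcm4 (log2 change -0.19 ± 0.08) did not pass. Females given aGC gave the same counts, 31 lower and 1 higher, beside 24.4% and 19.0% of all genes. In males given PBS the order of Mcm2 was the reverse (log2 change 0.66 ± 0.05, adjusted p of the difference 2.32e-11), at means of 160.2 ± 5.64 CPM in KO FT and 101 ± 3.73 CPM in WT FT (SD, n = 3). Among 26 mitosis genes 12 were lower and 1, Tpx2 (log2 change 0.96), higher. Ccnb1, which encodes cyclin B1, was at 7.09, 5.89 and 5.403 against 13.9, 13.7 and 11.8 CPM (log2 change -1.10 ± 0.16, adjusted p = 5.67e-06), whereas Mki67 was at 6.43, 5.45 and 5.17 and 8.05, 5.13 and 8.01 CPM and did not pass.

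The E-box was found in 2349 of 32851 promoters (7.15%), in 9 of 38 promoters of the MYC list (23.7%) and in 5 of 36 of the replication list (13.9%). Matches are shown for 3 genes that were lower in KO FT, with the match in capitals and up to 25 bases on either side, 5′ to 3′ on the strand of the gene, to set the letters beside the values above. Pes1, a ribosome biogenesis factor of the MYC list, had a log2 change of -0.35. The stretch of Cdk4 holds only the first of 4 matches in its promoter.
Cdk4 (chr10:127063338-127063393, plus strand): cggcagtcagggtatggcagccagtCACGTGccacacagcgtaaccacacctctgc
Tyms (chr5:30073656-30073711, minus strand): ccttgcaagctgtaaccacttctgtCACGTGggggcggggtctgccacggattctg
Pes1 (chr11:3963952-3964004, plus strand): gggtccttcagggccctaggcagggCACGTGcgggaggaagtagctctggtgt

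The machinery of protein synthesis and respiration was lower almost throughout. Of 63 cytosolic ribosomal protein genes, 58 were lower, with a median log2 change of -0.47, and the other 5, among them Rps19 (-0.25 ± 0.11), did not pass. Rpl4 was at 1122, 1172 and 1195 against 1586, 1615 and 1587 CPM (-0.46 ± 0.03). Of 49 nuclear genes of oxidative phosphorylation, 42 were lower and 7 did not pass (median -0.46). Cycs, which encodes cytochrome c, was at 100.4, 100.4 and 99.9 against 186, 175 and 173 CPM (log2 change -0.83 ± 0.07, adjusted p = 2.72e-09) and Atp5b, of the ATP synthase, was lower (-0.48 ± 0.04). With the length trend removed 57 of 63 and 42 of 49 were lower. These are short genes, with median exon lengths of 1770 and 2101 bases. Of all genes above 10 CPM in the bin of the shortest, 51.9% were lower as fitted, and 46.8% were still lower with the trend removed, so the removal was partial there.

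Glycolysis genes gave 12 lower and 4 higher of 23. Pkm, the pyruvate kinase, was at 1908, 1953 and 2167 CPM in KO FT and 2751, 2945 and 2725 CPM in WT FT (log2 change -0.48 ± 0.05, adjusted p = 4.93e-08), and Gapdh, Pgk1 and Aldoa were lower (-0.44 ± 0.06, -0.50 ± 0.05 and -0.39 ± 0.05). Slc2a3, which encodes the glucose carrier GLUT3, was higher, at 79.7, 75.3 and 84.8 against 42.9, 39.6 and 40.2 CPM (log2 change 0.97 ± 0.08, adjusted p = 2.47e-09). Of 30 amino acid and one-carbon genes 17 were lower and 2 higher. Shmt1, the cytosolic serine hydroxymethyltransferase, was at 134, 142 and 143 against 235, 256 and 247 CPM (log2 change -0.82 ± 0.07), Phgdh was lower (-0.48 ± 0.05), and the glutamine carrier gene Slc38a2 was higher by 0.73 ± 0.07. Sterol and fatty acid genes gave 9 higher and 6 lower of 31, and 6 higher and 9 lower with the length trend removed, with Fasn, the fatty acid synthase, lower (-0.85 ± 0.09).

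Stress genes changed in both directions, beside 24.2% higher and 22.4% lower of all genes. Of 24 genes of the unfolded protein response 8 were higher and 9 lower, but 6 and 12 with the length trend removed, and 5 and 4 on the 6 libraries with a replicate block. They included the chaperone gene Hyou1, higher (1.24 ± 0.17) and Sdf2l1 and Pdia6, lower (-0.67 ± 0.05 and -0.55 ± 0.04). Of 26 heat shock and dissociation genes 9 were higher and 11 lower. The higher ones included Jun, given above, and Klf6 (0.95 ± 0.08). Among the lower ones were the mitochondrial chaperonin gene Hspe1, at 126, 173 and 164 CPM in KO FT and 314, 266 and 332 CPM in WT FT (log2 change -0.98 ± 0.10, adjusted p = 2.5e-08), and Hsp90ab1 (-0.50 ± 0.04). Of 29 apoptosis and survival genes 5 were higher and 9 lower. Bcl2, which protects resting T cells, was at 61.7, 64.1 and 59.7 against 38.6, 33.4 and 39.3 CPM (log2 change 0.74 ± 0.08, adjusted p = 3.88e-08). Gadd45b and Bid were lower (-0.81 ± 0.06 and -0.66 ± 0.07), and so was Bcl2a1d (-0.59 ± 0.06), whose reads may be shared with its near copies.

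**Figure D3:**
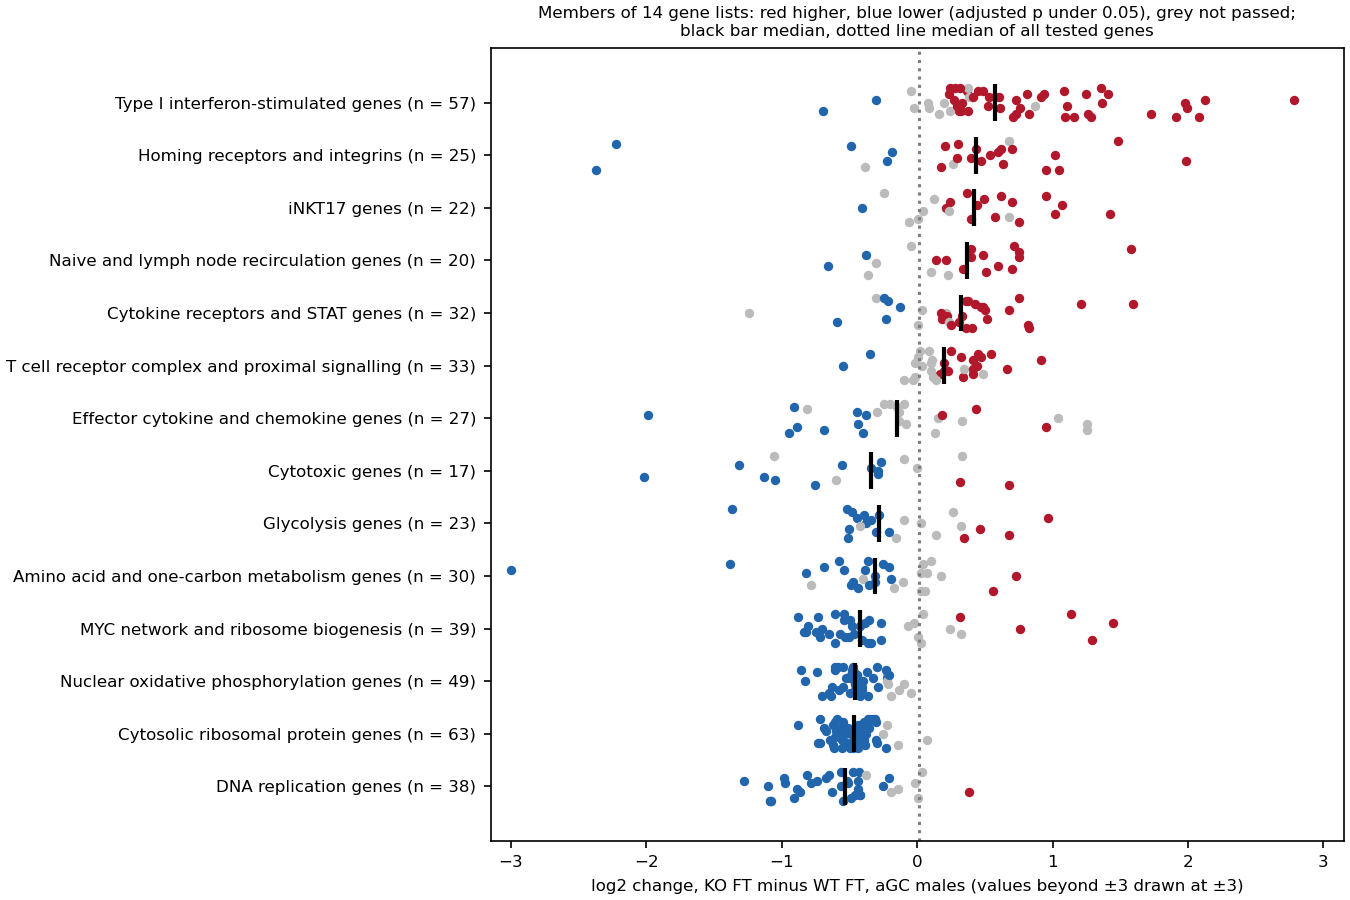
Log2 change KO FT minus WT FT after aGC in males (x axis) of the members of 14 gene lists (y axis); red points were higher, blue lower and grey did not pass at an adjusted p under 0.05, black bars are list medians and the dotted line is the median of all genes tested, 0.01. Interferon-stimulated genes lie to the right (median 0.58) and replication genes to the left (median -0.53).

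The log2 changes rose with gene length, which bears on the lists of short genes and on those of long genes. Among 8505 genes above 10 CPM, Spearman's rho of log2 change with exon length was 0.338, as a description across genes. The genes were cut into 5 bins of equal size by length. In the bin of the shortest genes 12.8% of genes were higher and 51.9% lower, with a median log2 change of -0.27. In that of the longest 42.0% were higher and 16% lower, with a median of 0.17. A like trend was seen in females given aGC (rho 0.39) and in males given PBS (0.227). When it was removed library by library, 3183 genes (20.0%) were higher and 4237 (26.6%) lower of 15942, and rho was 0.0933. The interferon list then gave 40 higher and 2 lower, and the replication list 34 lower and 1 higher.

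**Figure D4:**
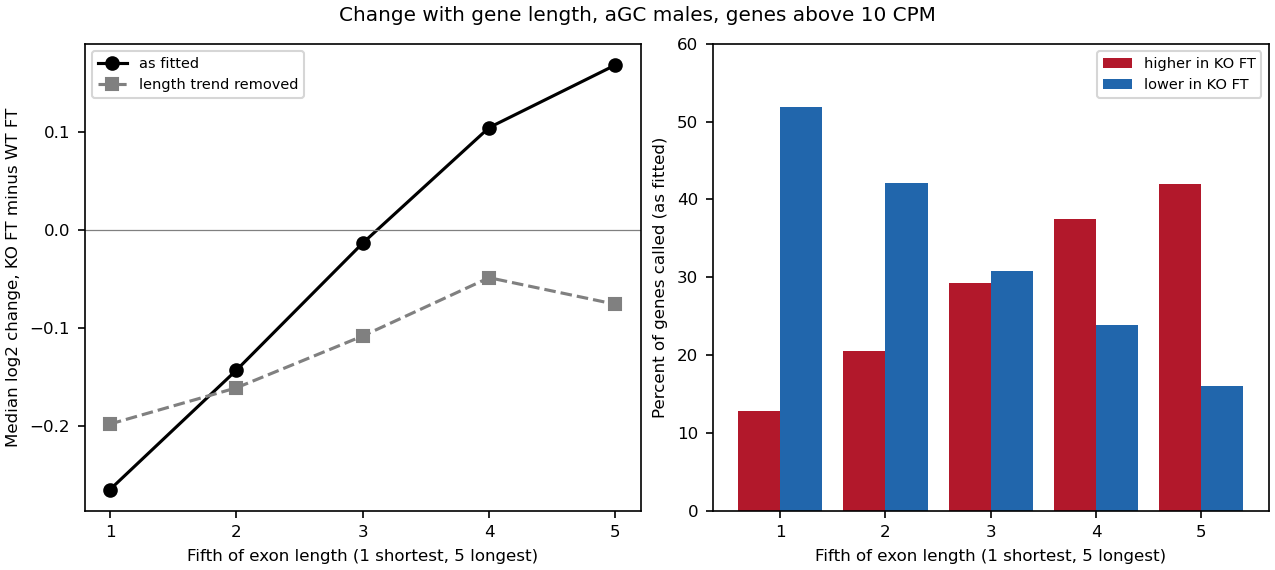
Left, median log2 change KO FT minus WT FT after aGC in males in each of 5 bins of exon length, as fitted and with the length trend removed; right, percent of genes called higher (red) and lower (blue) in each bin, as fitted. The median rises from -0.27 in the shortest bin to 0.17 in the longest, and with the trend removed it runs from -0.20 to -0.08.

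Set beside the females given aGC, in which 3035 genes (19.0%) were higher and 3896 (24.4%) lower in KO FT, the males shared part of their changes. Of 7421 genes called in males 4077 (54.9%) were called in females too, which is 58.8% of the 6931 called there. The direction was the same for 3367 of them (82.6%), 1426 higher and 1941 lower, and opposite for 710. All 710 passed the test of the difference between the sexes. Their choice by opposite calls in the same fit nearly ensures this, so it is no separate evidence. Over all genes that test called 2778 (17.4%) higher and 1978 (12.4%) lower in males. The sexes differ here in Cd8a as well as sex, and these cannot be told apart.

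The females also supply a set of aGC response genes chosen on libraries outside this comparison. In both WT FT and KO FT females 381 genes rose at least 2-fold with aGC. In the males given aGC 267 of them (70.1%) were lower in KO FT than in WT FT and 20 (5.25%) higher, with a median log2 change of -0.47. Another 159 genes fell at least 2-fold in both groups of females, and of these 110 (69.2%) were higher in KO FT males and 9 (5.66%) lower, with a median of 0.43. Among all 8672 genes at 10 CPM or more in a compared group, 28.0% were higher and 33.6% lower. Cd8a itself was at 5.196 ± 0.424 CPM (SD, n = 3) in KO FT females given PBS and at 189 CPM in those given aGC, and the part of CD8 T cells in the choice of these genes was not tested. In the males compared Cd8a was below 10 CPM on both sides, which was known when they were chosen, and Cd8b1 was lower in KO FT, as given above.

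**Figure D5:**
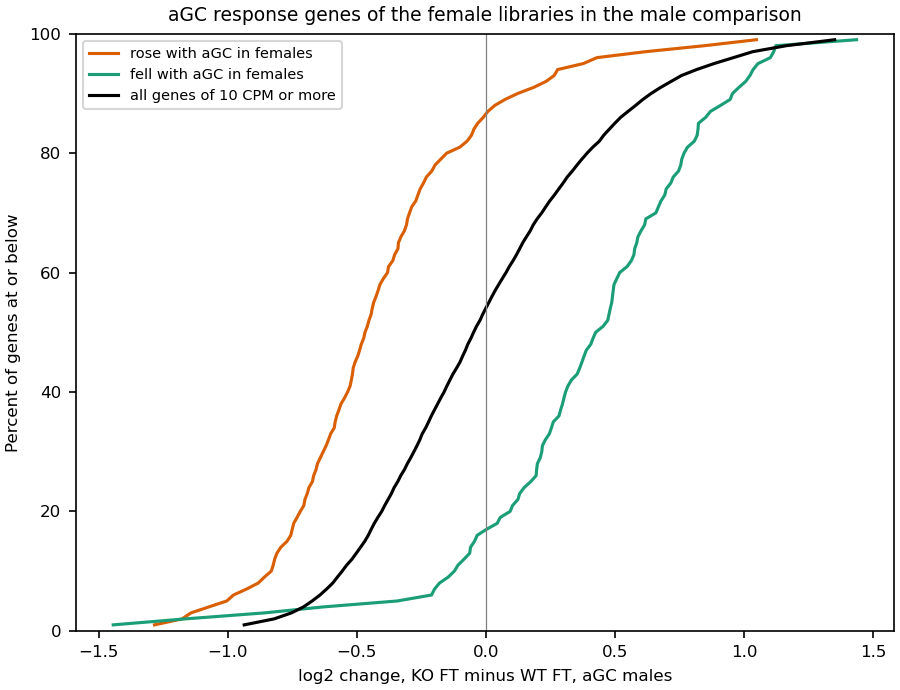
Cumulative percent of genes (y axis) at or below each log2 change KO FT minus WT FT after aGC in males (x axis), for 381 genes that rose and 159 that fell with aGC in females of both transplants, and for 8672 genes at 10 CPM or more. The curve of genes that rose lies to the left of all genes (median -0.47) and that of genes that fell to the right (median 0.43).

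For many genes the transplant difference after aGC departed from that after PBS. In males the difference between the effect after aGC and after PBS passed for 3224 genes (20.2%) above and 2992 (18.8%) below. Across 8505 genes the log2 changes after aGC and after PBS in males correlated at 0.268, as a description, and those of males and females after aGC at 0.45. Replication genes were lower after aGC than after PBS in this sense for 28 of 38, and interferon-stimulated genes higher for 31 of 57. Ctse, with a log2 change of 0.20 ± 0.08 in males given PBS, and Gzmb, with 0.00 ± 0.27, differed between treatments (adjusted p = 1.16e-17 and 2.02e-05). For Ccl1 the change in PBS males was of the same sign (log2 change -3.13 ± 0.26) at means of 0.591 ± 0.214 and 5.404 ± 0.232 CPM in KO FT and WT FT (SD, n = 3). Ccr9 did not differ in this test (adjusted p = 0.143). Cd8a separates the males given PBS from those given aGC, and its part in these differences was not tested.

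Markers of other cells had widely differing levels, and their counts are given beside 24.2% higher and 22.4% lower of all genes. Plasma cell markers, of which 2 of 5 were higher, summed to 263 to 286 CPM in KO FT and 269 to 297.5 CPM in WT FT. Of 18 B cell markers 6 were higher and 5 lower, with a summed level of 656 to 712 CPM in KO FT and 590 to 665 CPM in WT FT, most of it Ighm (560.0, 502 and 559 against 450.5, 497 and 442 CPM). Of 16 macrophage and dendritic cell markers 3 were higher and 3 lower, at 451 to 504 CPM in KO FT and 532.5 to 564 CPM in WT FT. Lyz2, the myeloid lysozyme, was higher, at 27.2, 24.9 and 27.3 against 15.96, 14.5 and 17.1 CPM, as were Xcr1 and Flt3, while Siglech (log2 change -1.70), Bst2 and Ccr7 were lower. Natural killer and innate lymphoid markers gave 1 higher and 1 lower of 8. Red cell and platelet markers summed to at most 1.44 CPM, and neutrophil and mast cell markers to at most 0.8701 CPM, in any of the 6 libraries. Of 5 stromal, endothelial and epithelial markers tested 2 were higher and 1 lower, and Krt8 was at 0, 0.147 and 0 CPM in KO FT and 1.77, 1.599 and 2.28 CPM in WT FT. The part of these cells in the results was not tested.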

How the data were processed

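RNA of 24 libraries was made with a purification kit for single cells and Nextera XT tagmentation, which keeps no strand, so reads of a gene and of an antisense neighbour cannot be told apart. The authors deposited expected counts per gene as whole numbers, made with kallisto on GRCm38 (mm10), per the submitters' processing notes; the sources used here name no version and no annotation release. Of 55335 genes 55154 had a GENCODE M21 symbol. Genes were kept by filterByExpr (minimum count 10, minimum total 15), TMM factors scaled the counts, and the quasi-likelihood model of edgeR was fitted on 24 libraries and 8 group means, with 16 residual degrees of freedom. Tests were two-sided with Benjamini-Hochberg adjustment at 0.05, glmTreat was used for 1.5-fold, and a change's SE was taken as that log2 value over the square root of its F. Levels are TMM-scaled CPM.

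The members and the 44 gene lists (1061 entries, 995 tested) were chosen with earlier results of these data known. Named genes are the 15 largest rises and falls at 10 CPM or more, predicted genes and receptor segments left out, up to 6 list members at 5 CPM or more of smallest adjusted p plus at most 2 missing the threshold, fixed markers and the highest cell markers. Other names were chosen after their values were seen. The script was tested on simulated data. Alternatives were other scalings, filters and tools, fewer libraries, leaving out each library, a replicate block and 1 summed profile per group. The last was a likelihood ratio test. Its dispersion came from a fit of treatment, donor, their interaction and sex over 8 profiles. Added after seeing the data was a lowess trend on exon length (span 0.5). Tables and figures were made in Python 3.11.15 (matplotlib 3.10.9, numpy 2.4.6, pandas 2.3.3), and models fitted in R 4.3.3 with DESeq2 1.42.0, edgeR 4.0.16 and limma 3.58.1. A few items are not reported here.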

Additional observations from a re-analysis of the deposited data

Results flagged for a closer look

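The difference between the KO FT effect after aGC in males and in females passed the test for 2778 genes with the higher value in males and 1978 with the lower. Of the 15 largest rises and 15 largest falls in males, those called in the opposite direction in females are given here. The differences, on the log2 scale, were 3.787 for Rsad2, 3.758 for Ifit3b and 3.348 for Cmpk2, which were higher in KO FT males and lower in KO FT females. Penk, at -12.74, Zfp874b, at -3.403, and Gzmb, at -2.603, were lower in KO FT males and higher in KO FT females, and the value of Penk is a fitted one that rests on 3 counts in KO FT males. Between aGC and PBS in males the KO FT effect was higher after aGC for 3224 genes and lower for 2992. Groups of 3 libraries are too small for a test of outlying libraries.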

How the results depend on the processing

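The counts of genes higher and lower in KO FT stayed within 1.5 times of 3855 and 3566 under every alternative run except 1 summed profile per group (32 and 4). The counts at 1.5-fold, 1136 and 347, fell to 704 and 191 at an adjusted p of 0.01, 592 and 89 with a filter at 10 CPM, 668 and 194 on the 6 libraries alone, and 633 and 214 with DESeq2. The difference between the sexes, 2778 and 1978, gave 1730 and 1095 at 0.01, 1823 higher with the 10 CPM filter, and 22 and 8 on summed profiles. The difference between treatments, 3224 and 2992, gave 1673 lower with the 10 CPM filter, and 49 and 28 on summed profiles. Fewer genes or libraries enter some of these fits, and the cause of the other shifts was not tested. Leaving out each library gave 3381 to 3632 higher and 3246 to 3450 lower. Same-numbered libraries of the compared groups correlated at 0.0594, -0.238 and 0.00474 in their deviations from the group means, and the other pairs at -0.161 to 0.175. With 3 libraries in a group these values cannot settle whether the replicate numbers pair the libraries. With a replicate block the counts were 3798 and 3494, and on the 6 libraries with the block those at 1.5-fold were 569 and 144. Scaling by DESeq2 size factors moved the median of all genes by -0.018. Depth limits values near 0.141 to 0.228 CPM.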
